A study of Saccharomyces cerevisiae with 5 samples.

Results

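Thiamine (vitamin B1) synthesis and transport in budding yeast, Saccharomyces cerevisiae, was followed through 8 genes, THI4, THI5, THI6, THI7, THI20, THI21, THI22 and THI80, out of 6205 open reading frames (ORFs) spotted on the arrays. The genes were matched by their ORF identifiers. They were chosen by name with their ratios on these same arrays already known, so their values, and any count of them past a threshold, are given as a description with no p-value. All 5 arrays were hybridised with a pair of RNAs, from cells 1 hour after dilution into rich YP medium with 20% glucose and from cells diluted into YP with 2% glucose; both came from overnight cultures in 2% glucose. RNA labelled 20% carried Cy5 on arrays 2 and 5 and Cy3 on arrays 1, 3 and 4. The labels used here name no strain and do not say whether the arrays come from separate cultures, so each p-value reflects array-to-array spread alone, and part of that spread may be technical.

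Yeast makes thiamine from a thiazole and a pyrimidine that are built on separate branches and then joined, and it also takes thiamine up from the medium. The active form is thiamine diphosphate, the cofactor of pyruvate decarboxylase, transketolase and several mitochondrial dehydrogenases. When thiamine diphosphate is plentiful, the synthesis and uptake genes are repressed; when it is scarce, the regulators Thi2, Thi3 and Pdc2 activate them.

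All ratios are log2 of RNA labelled 20% over RNA labelled 2% glucose, so a negative value means less signal in the RNA labelled 20%. Estimates over the 5 arrays come from limma with a dye term and are followed by their standard error (SE). The direction rests on the dye labels and, for arrays 1 to 3, on the deposited ratios running the same way as those of arrays 4 and 5. GPD1, the glycerol enzyme known to rise in high osmolarity, was at -3.96 ± 0.97, HXT1, a transporter known to be induced by high glucose, at -2.54 ± 0.26, and HXT2, a transporter known to be repressed by high glucose, at 2.26 ± 0.15. These signs oppose the known behaviour of all 3 genes, and the samples are therefore called by their labels throughout. If the dye labels were exchanged, every sign below would turn. Arrays 4 and 5 correlated at 0.957 across 4693 ORFs, arrays 2 and 3 at 0.870, array 1 at 0.610 and 0.625 with arrays 2 and 3, and the first 3 arrays at 0.258 to 0.381 with arrays 4 and 5. Arrays 4 and 5, for which scanner files were given, are therefore also set against arrays 1 to 3.

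THI4 had the largest 5-array estimate of the 8 genes in size, although on array 1 THI7 was larger. It encodes the enzyme that forms the thiazole and that gives up a sulfur of its own in doing so. Its ratio was -1.03, -1.30, -1.26, -1.77 and -2.47 on arrays 1 to 5. All 5 values were below 0, in both dye orientations. Over the 5 arrays it was at -1.62 ± 0.20, which is 3.07-fold. On array 4 its spot, after background subtraction, had an intensity of 180 in the RNA labelled 20% and 620 in the RNA labelled 2%. On array 5 the intensities were 114 in the RNA labelled 20% and 551 in the RNA labelled 2%. Intensities are given as scanned and are not balanced between the dyes, unlike the ratios: the median over all spots was 1269 in the RNA labelled 20% and 1324 in the RNA labelled 2% on array 4, and 695 (20%) and 593 (2%) on array 5. The channel of the RNA labelled 20% was the dimmer one on both arrays, at 2.90 and 2.97 times its local background, against 10.7 and 9.22 times for the RNA labelled 2%.

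**Figure D1:**
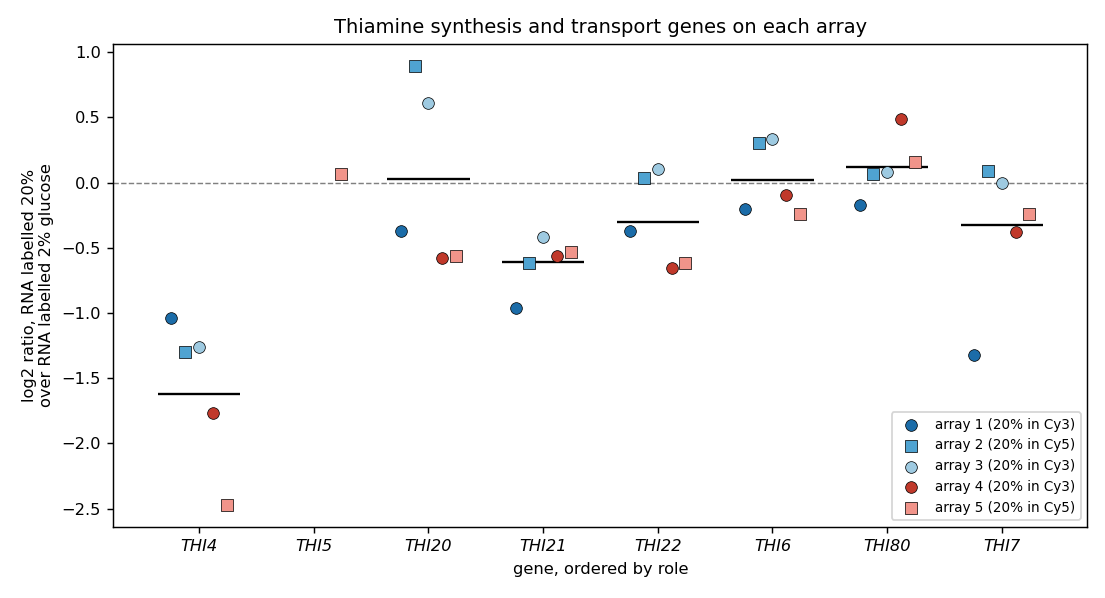
Log2 of the 20% over 2% glucose ratio, by dye label (vertical axis) for the 8 thiamine genes on each of 5 arrays (points; squares have 20% in Cy5, circles in Cy3), with the 5-array estimate as a black line. THI4 lies below 0 on every array, between -1.03 and -2.47, THI21 also lies below 0 on every array, and THI5 has a value on 1 array.

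THI4 was farther below 0 on arrays 4 and 5 than on arrays 1 to 3. It was at -2.12 ± 0.50 (SD, n = 2) on arrays 4 and 5, against -1.20 ± 0.14 (SD, n = 3) on arrays 1 to 3. The difference, estimated with the dye term, was -0.86 ± 0.18, and between -0.62 and -1.17 with any 1 array left out. The genes were chosen with the ratios on these arrays known, so no p-value is given for it.

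On the pyrimidine branch the ratios were smaller and of both signs. THI5 encodes the enzyme that forms the pyrimidine from vitamin B6 and a histidine of its own. The deposited table holds 1 value for it, 0.06 on array 5. The scanner file of array 4, where its spot carried no flag, gave 0.20, and that of array 5 gave 0.09. The spot had an intensity of 628 in the RNA labelled 20% and 577 in the RNA labelled 2% on array 4, and of 335 (20%) and 266 (2%) on array 5. THI5 has too few values for an estimate over the arrays. It is 1 of 330 ORFs that hold no value on arrays 1 to 3 and a value on array 4, array 5 or both.

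THI11, THI12 and THI13 are near-identical copies of THI5 at other chromosome ends, named here after their values were seen. All 4 genes are listed at 1023 bases in the scanner files, and their spots may share signal. THI11 was at 0.74 and 0.60 on arrays 4 and 5, THI12 at 0.31 and 0.28, and THI13 at 0.25 on array 5. All 5 of these values were above 0, whereas THI4 was below 0 on the same arrays.

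THI20, THI21 and THI22 are paralogs, and their spots may share signal. Thi20 and Thi21 phosphorylate the pyrimidine, and Thi20 also carries a thiamine-degrading domain. Thi22 resembles them but lacks the kinase activity. The scanner files list 1656 bases for THI20 and for THI21 and 1719 for THI22.

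THI21 was at -0.96, -0.62, -0.42, -0.56 and -0.53 on arrays 1 to 5. All 5 values were below 0, with an estimate of -0.61 ± 0.11, which is 1.53-fold. THI20 was at -0.37, 0.89, 0.61, -0.58 and -0.57. It was higher in the RNA labelled 20% on arrays 2 and 3 and lower on arrays 1, 4 and 5, and its estimate of 0.02 ± 0.27 is an average of these opposite values. THI22 was at -0.37, 0.04, 0.10, -0.66 and -0.61, with an estimate of -0.30 ± 0.15. On arrays 4 and 5 the 3 paralogs lay close together, between -0.53 and -0.66. On arrays 2 and 3 they lay apart, in the order THI20, THI22, THI21.

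The difference between the sets was -1.03 ± 0.33 for THI20 and -0.58 ± 0.18 for THI22. THI20 was at -0.57 ± 0.01 (SD, n = 2) on arrays 4 and 5, against 0.38 ± 0.66 (SD, n = 3) on arrays 1 to 3, where array 1 had the opposite sign to arrays 2 and 3. THI22 was at -0.64 ± 0.03 (SD, n = 2) on arrays 4 and 5 and at -0.08 ± 0.26 (SD, n = 3) on arrays 1 to 3. Without array 1 the differences were -1.32 for THI20 and -0.70 for THI22.

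The genes that join the branches and finish the cofactor had small ratios. THI6, which couples the thiazole to the pyrimidine and also phosphorylates the thiazole, was at -0.20, 0.30, 0.33, -0.10 and -0.24 on arrays 1 to 5. These values fall on both sides of 0 and gave an estimate of 0.02 ± 0.13. THI80 encodes the kinase that turns thiamine into thiamine diphosphate. It was at -0.17, 0.06, 0.08, 0.49 and 0.16, above 0 on 4 of 5 arrays, with an estimate of 0.12 ± 0.12. THI80 was the 1 gene of the 8 that was above 0 on both arrays 4 and 5 with a value on all arrays.

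THI7, the high-affinity thiamine transporter of the plasma membrane, was at -1.32, 0.09, -0.0034, -0.38 and -0.24 on arrays 1 to 5. Array 1 gave a ratio far below those of arrays 2 and 3, which were close to 0. The estimate was -0.32 ± 0.20. Its spot was bright in both channels, with an intensity of 4175 in the RNA labelled 20% and 5764 in the RNA labelled 2% on array 4, and of 3242 (20%) and 3013 (2%) on array 5. THI72, a related transporter named here after its values were seen, was at -0.84, 0.15, -0.24 and -0.38 on arrays 1 to 4, likewise lowest on array 1. The estimate of THI72 was -0.17 ± 0.16 (adjusted p = 0.517 in limma). Copies of the transporter family may share signal.

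**Figure D2:**
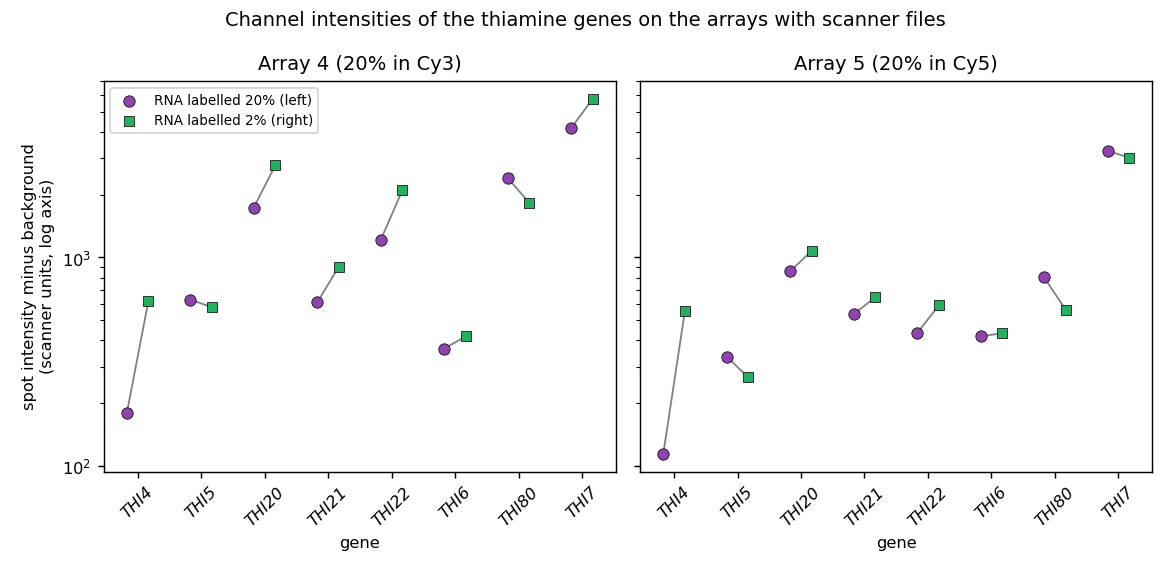
Spot intensity minus local background in scanner units (vertical log axis) of the 8 thiamine genes on array 4 and array 5, with the RNA labelled 20% as the left point and the RNA labelled 2% as the right point of each pair. The pair of THI4 is the widest apart, 180 against 620 on array 4 and 114 against 551 on array 5, whereas the pair of THI6 is nearly level.

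Across the 7 genes with values on all arrays, 3 estimates were above 0 and 4 below, with a median of -0.30, against 0.003 over all 5447 genes tested. In the same fit 2 of the 7 passed an adjusted p of 0.05, THI4 and THI21, both lower; of all genes tested 3.69% passed, 2.24% as higher and 1.45% as lower. These shares stand beside a count that the choice of the genes may have fixed, and nothing is read from it. With the array set as a further term THI22 was at -0.35 ± 0.09 and 3 of the 7 passed (THI4, THI21 and THI22), where 29.7% of all genes did. With 1 array left out THI4 lay between -1.91 and -1.33 and THI21 between -0.67 and -0.53; these fits passed 0 or 1 of the 7, where 0 to 1.86% of all genes passed. The same sign on all 5 arrays was seen for 2 of the 7 and for 36.5% of the ORFs with 5 values. Array 1 was the lowest of arrays 1 to 3 for 6 of the 7 genes, all but THI4, and for 40.3% of ORFs with a value on each of these arrays. The median of the genes with a value was -0.37 on array 1, 0.06 and 0.08 on arrays 2 and 3, -0.56 on array 4 and -0.39 on array 5. THI21 was the 1 gene besides THI4 that kept its sign throughout.

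The ORFs with ratios most like those of THI4 were found by the root mean square difference over the 5 arrays among ORFs with all 5 values. They were YOR062C (0.40), YHR049C-A (0.41), the proline permease PUT4 (0.45), ORA1, named in the gene table for YMR226C (0.49), and the serine hydrolase FSH1 (0.50). PUT4 was at -0.33, -0.98, -1.50, -2.24 and -2.14 on arrays 1 to 5. FSH1 was at -1.06, -0.52, -0.86, -1.53 and -1.83. All 5 ORFs were below 0 on every array and lower on arrays 4 and 5 than on arrays 1 to 3, as was THI4. Choosing ORFs by closeness to THI4 favours this pattern, so nothing is read from it. None of the 5 is another of the 8 thiamine genes. By their identifiers YHR049C-A and FSH1 (YHR049W) lie close together on opposite strands. Whether they overlap was not tested, and their spots may share signal. The same rule could not be applied to THI5, which has 1 value.

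**Figure D3:**
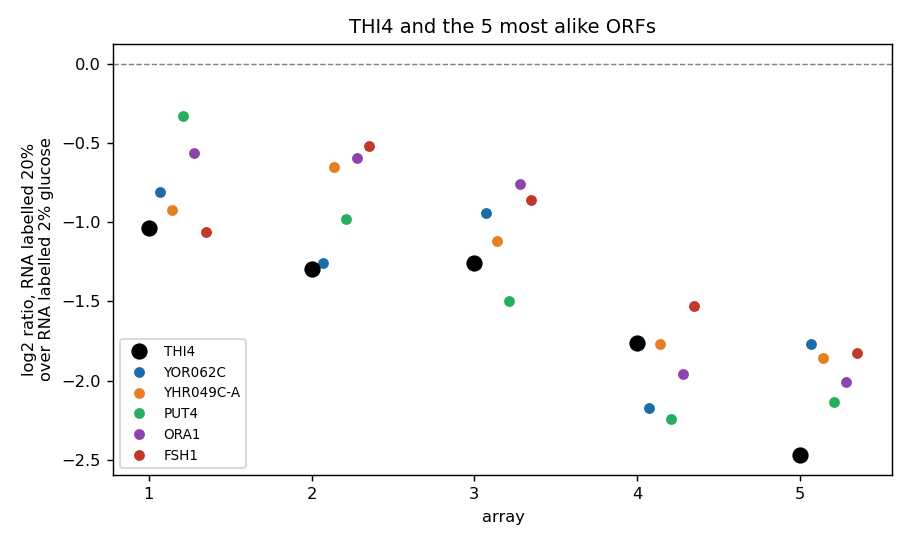
Log2 of the 20% over 2% glucose ratio, by dye label (vertical axis) of THI4 (large black points) and of the 5 ORFs with the smallest root mean square difference from it, on each of 5 arrays (horizontal axis). All points lie below 0, and those of THI4 lie between -1.03 on array 1 and -2.47 on array 5.

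The gene next to THI4 on the chromosome map of the RefSeq R64 table, ENP2 of ribosome synthesis, was at -0.54 (adjusted p = 0.043 in limma), and SKN1 on its other side was at 0.26 (adjusted p = 0.192). THI5 lies next to SNZ3, and its copy THI12 lies next to SNZ2. SNZ2 and SNZ3 are near-identical genes of vitamin B6 synthesis, the source of the pyrimidine.

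Of the other genes of the pathway, 11 in a first list cover the copies of THI5, uptake and regulators. Of 8 tested, limma called 0 higher and 0 lower. The unadjusted p was under 0.05 for 1 of them, and for 1551 of all 5447 genes tested. The median estimate of the list was -0.04. The smallest p was that of PHO3, an acid phosphatase of the cell surface that releases thiamine from its phosphates for uptake. PHO3 was at 0.04, 1.81, 1.05, 3.37 and 3.42 on arrays 1 to 5. All values were above 0, opposite to THI4, and array 1 lay near 0. Spots of related acid phosphatase genes may share signal with that of PHO3. The estimate was 2.05 ± 0.51 (adjusted p = 0.0756 in limma) and, once a term for the array set was added, 2.24 ± 0.20 (adjusted p = 0.00147, in a fit that called 16.4% of all genes higher).

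PHO3 had an intensity of 9241 in the RNA labelled 20% and 904 in the RNA labelled 2% on array 4, and of 8173 (20%) and 595 (2%) on array 5. It was at 3.40 ± 0.04 (SD, n = 2) on arrays 4 and 5, against 0.97 ± 0.89 (SD, n = 3) on arrays 1 to 3. The difference of 2.30 ± 0.39 passed (adjusted p = 0.0217), and without array 4 it was 1.61 and did not (adjusted p = 0.0992). On arrays 4 and 5 PHO3 and THI4 had large ratios of opposite sign. Both are known as genes that thiamine represses, and the part of thiamine in their ratios was not tested.

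The regulators had small ratios. THI3, a sensor of thiamine diphosphate, was at -0.12 ± 0.08 (adjusted p = 0.359), between -0.22 and 0.06 on the arrays. PDC2, an activator shared with the pyruvate decarboxylase genes, was at -0.13 ± 0.10 (adjusted p = 0.404), and THI74, a predicted transporter of mitochondria, at -0.09 ± 0.07 (adjusted p = 0.451). THI2, the activator specific to thiamine genes, was at 0.01 ± 0.10 on 4 arrays (adjusted p = 0.976); it falls outside the naming rule.

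Of the 6 genes of vitamin B6 synthesis, limma called 0 in either direction. The unadjusted p was under 0.05 for 2 of them, and for 1551 of all 5447 genes tested. All 6 estimates were above 0, with a median of 0.37, as were 2745 of all genes tested. SNZ3 was at 0.38 ± 0.09 (adjusted p = 0.0725), SNZ2 at 0.36 ± 0.11 (adjusted p = 0.101) and SNO3 at 0.19 ± 0.08 (adjusted p = 0.186). Spots of the SNZ copies, and of the SNO copies, may share signal, so these genes may not count separately. SNZ1, the copy outside the THI5 neighbourhoods, was at 0.73 ± 0.30 (adjusted p = 0.179), and its partner SNO1 was at 0.90 ± 0.49 (adjusted p = 0.28). SNO1 was at 2.26 ± 0.07 (SD, n = 2) on arrays 4 and 5, against -0.07 ± 0.24 (SD, n = 3) on arrays 1 to 3, and its difference of 2.33 ± 0.18 passed (adjusted p = 0.0041). SNZ1 was at 1.49 ± 0.03 (SD, n = 2) on arrays 4 and 5 and at 0.18 ± 0.38 (SD, n = 3) on arrays 1 to 3 (adjusted p of the difference = 0.025). Once the array set was added to the fit, 4 of the 6 passed as higher, against 16.4% of all genes.

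Of 11 enzymes that use thiamine diphosphate, 10 were tested, and 2 were higher and 0 lower past the threshold. Of all genes tested, 2.24% passed as higher and 1.45% as lower, and the count is a description. All 10 estimates were above 0, with a median of 0.55, as were 2745 of all 5447 genes tested. TKL1 (0.004 ± 0.10) and PXP1 (0.03 ± 0.14) were close to 0. The enzyme not tested, the transketolase TKL2, was below 0 where it had values, at -0.35, -0.54 and -0.32 on arrays 1, 2 and 5. ARO10, a decarboxylase of amino acid breakdown, was at 1.16 ± 0.19 (adjusted p = 0.043), between 0.69 and 1.74 on the arrays. KGD1 of the 2-oxoglutarate dehydrogenase was at 0.62 ± 0.09 (adjusted p = 0.0422), between 0.43 and 0.79. ARO10 did not pass without array 1, 2, 3 or 5, at estimates of 0.99 to 1.33, and KGD1 did not pass without any 1 array, at 0.58 to 0.67; these fits called 0 to 1.86% of all genes. The pyruvate decarboxylases, named here for their difference between the sets, were higher on arrays 4 and 5. PDC1 was at 1.69 ± 0.02 (SD, n = 2) there and at 0.24 ± 0.31 (SD, n = 3) on arrays 1 to 3 (adjusted p of the difference = 0.0104). PDC5 was at 1.84 ± 0.02 (SD, n = 2) on arrays 4 and 5 and at 0.35 ± 0.30 (SD, n = 3) on arrays 1 to 3 (adjusted p = 0.0111). Spots of these related genes may share signal. Once the array set was added to the fit, 6 of the 10 passed as higher, against 16.4% of all genes.

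**Figure D4:**
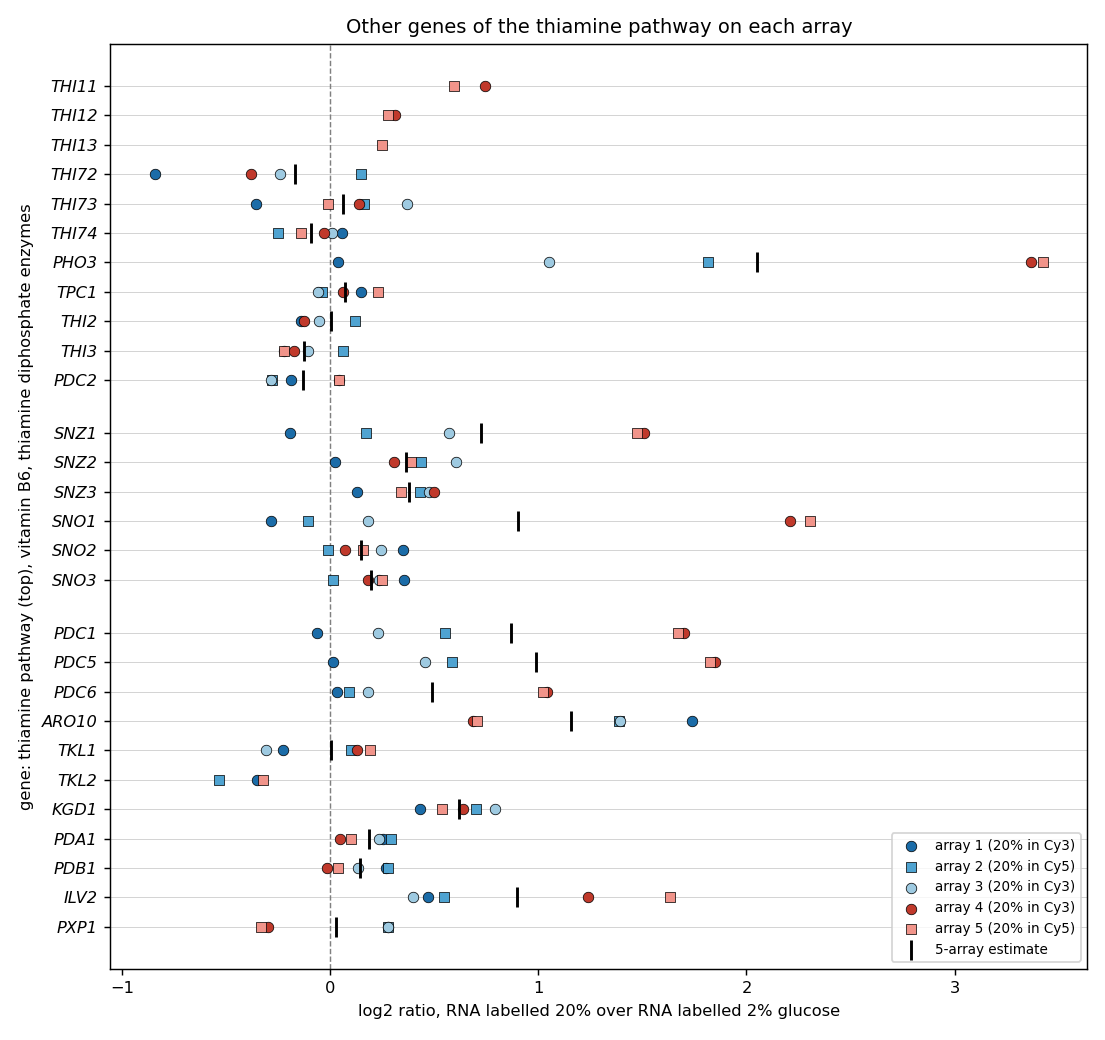
Log2 of the 20% over 2% glucose ratio, by dye label (horizontal axis) on each of 5 arrays for 28 other genes, listed down the page as thiamine pathway, vitamin B6 and thiamine diphosphate enzymes; the black tick is the 5-array estimate. PHO3, SNZ1, SNO1, PDC1 and PDC5 are farther right on arrays 4 and 5 (red) than on arrays 1 to 3 (blue), and the copies of THI5 have values on arrays 4 and 5 alone.

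The difference between the sets passed for 9 of the 24 pathway genes tested, with 7 ratios higher and 2 lower on arrays 4 and 5. That is 37.5% of them, against 12.8% of all genes. The lists were chosen with earlier results of these data known, so this share is a description and nothing is read from it. Without array 4 the difference passed for 1 of 22 (SNO1) and for 1.99% of all genes, without array 2 for 4 of 22 and 3.41%, and without array 5 for 5 of 24 and 5.01%. Genes taken as markers of stationary phase, the state of cells in a spent overnight culture, were also measured. HSP26, SSA3 and GRE1 among them are also known as stress genes, so they do not mark that state alone. The list holds 10 genes, and the median of those with a value was 0.56 on arrays 4 and 5 and 0.0007 on arrays 1 to 3. SPG1 had no value on arrays 4 and 5. SPG1, SPG4 and SIP18 had too few values to be tested, and 3 of the 7 tested differed between the sets. HSP26 (1.43), SSA3 (1.06) and GRE1 (1.26) passed, each higher on arrays 4 and 5. YGP1 (1.17), FMP45 (0.01), SPG3 (-0.31) and SPG5 (-0.65) did not pass, so the markers did not move together. The part of the markers in the ratios of the thiamine genes was not tested. In a mixed culture, fewer cells of a kind and less RNA per cell cannot be told apart.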

How the data were processed

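Yeast RNA was hybridised to 5 arrays in 2 colours. The deposited table gives the authors' log2 channel ratios, with a median near 0 on each array (software not given in the sources used here). Per the file headers, scanner files of arrays 4 and 5 give spot and background intensity at 635 nm (Cy5) and 532 nm (Cy3), a log2 ratio, and a flag, a quality score. On arrays 4 and 5, 258 and 262 deposited values of 10 or more in size were divided by 10, 2 of them of the thiamine genes. After this the correlation with the scanner ratios was 0.991 and -0.964, so the table's ratio is Cy5 over Cy3 on array 4 and the inverse on array 5. Given the dyes, both are 2% over 20%. All values were multiplied by -1. Direction and scale of arrays 1 to 3 were taken to be the same.

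Ratios of the 5447 ORFs with values on at least 4 arrays and both dye orientations were fitted with limma 3.58.1 in R 4.3.3 (lmFit, eBayes) with a dye term. Two-sided p-values were adjusted by the Benjamini-Hochberg method across these ORFs, with a threshold of 0.05. The difference between arrays 4 and 5 and arrays 1 to 3 was a further term. On arrays 4 and 5 the median spot was 10.1 to 15.9 times its background; no such values were used for arrays 1 to 3. The number of arrays limits the precision. All fits treat the arrays as independent, although arrays 4 and 5 correlated at 0.957, so the SEs and p-values may be too small. The fit was also run on simulated data with independent noise on each array. The unequal correlations between the arrays were not simulated, and nothing is read from that run.

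Members and lists were chosen with earlier results of these data known, so the 8 genes carry no p-value, their set differences included. For the same reason the p-values and counts of the listed genes are descriptions. Of the other genes, those past the threshold were named, otherwise up to 4 of each list with the smallest p. Exceptions are stated. ORFs were named through a RefSeq table (assembly R64), which matched 5705 of 6205; no positions are given, since the files name no build.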

Additional observations from a re-analysis of the deposited data

Results flagged for a closer look

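Of the 24 pathway genes tested around the 8 thiamine genes, 9 had a ratio that differed between the sets of arrays past the threshold (limma, adjusted over all genes). The same was true of 12.8% of all genes tested. The ratio was lower on arrays 4 and 5 for ARO10 (-0.79) and PXP1 (-0.59), a putative peroxisomal lyase. It was higher on arrays 4 and 5 for PHO3 (2.30), SNO1 (2.33), SNZ1 (1.31), PDC1 (1.41), PDC5 (1.46), PDC6 (0.93) and ILV2 (0.93), the acetolactate synthase. Without array 2 the difference passed for 4 of 22, PHO3, SNO1, PDC1 and PDC5, and for 3.41% of all genes. Of 31 genes, the 8 included where they had 4 or 5 values, 0 had an array whose gap to the nearest other exceeded Dixon's critical share of the range (0.71 for 5 arrays), which chance exceeds in about 1 in 20. The gap of array 1 for THI7 was 0.669 of the range, under that limit. The cause of the differences was not tested.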

How the results depend on the processing

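THI4 and THI21 were below 0 under every alternative run. Of the 7 thiamine genes, 2 passed over the 5 arrays; 0 to 1 passed when an array was left out (0 to 1.86% of all genes), 0 with values as deposited (0.0184%; THI4 was at -9.83, since its 2 slipped values stay 10 times too large) and 1, THI4, with scanner ratios (1.06%). The count past the threshold for the set difference, a description, was 1 of the 7, where 12.8% of all genes passed. It was 0 to 5 when 1 of arrays 1 to 3 was left out, where 3.41% to 46.8% of all genes passed. The set difference of THI7, 0.02 ± 0.40, lay between -0.35 and 0.31 when an array was left out, lowest without array 1. Of 24 pathway genes, 2 were higher in the main fit, where 2.24% of all genes were called higher. The count was 0 to 1 with an array left out and 0 with values as deposited. With scanner ratios it was 0 (limma adjusted p = 0.0545 for ARO10 and 0.0509 for KGD1). It was 6 with no dye term (16.9% of all genes called) and 11 with a term for the array set (29.7%). None was lower in any fit. The pathway genes that differed between the sets numbered 9, then 1 to 10 with an array left out and 4 with values as deposited; these alternatives were added after the count was seen. Except where the construction shows it, the cause was not tested. Requiring 5 values, allowing 3, or leaving out dim spots moved no count of these by over 1.5 times.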
